A study of Mus musculus with 6 samples.

Results

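Heat shock proteins and other molecular chaperones were examined in biliary epithelial cells of the mouse liver, which form its bile ducts. The genes were chosen by symbol alone: the HSP70, HSP90, small HSP, HSP40 (DnaJ), chaperonin, BAG and heat shock factor families. They made up 93 of the 25302 genes in the table, and 84 of them were abundant enough to test, at 10 or more normalized reads on average across the 6 libraries. The unit is reads scaled by a factor for the depth of each library.

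Bulk RNA sequencing compared 3 Control samples with 3 Sox9cKO samples. The Control genotype was Sox9fl/fl, and the Sox9cKO genotype was Sox9fl/fl:AlbCre+/-, so both groups carried floxed alleles of Sox9, the gene of a biliary transcription factor. The Sox9cKO samples alone carried the Cre transgene, which the albumin promoter drives in the liver epithelial lineage. An effect of Cre and an effect of Sox9 loss therefore cannot be told apart in this design. The age and sex of the animals are not given in the sources used here, and nothing states whether each sample came from a separate animal, so the p-values measure the spread between these samples.

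Chaperones help other proteins to fold, keep them from clumping and pass damaged ones on for degradation. HSP70 proteins bind and release unfolded stretches in a cycle driven by ATP, DnaJ proteins deliver clients and start the cycle, and BAG proteins help to end it. HSP90 finishes folding of kinases and steroid receptors, the CCT ring folds actin and tubulin, and small HSPs hold unfolded proteins without using ATP. Heat shock factor HSF1 switches on the inducible members within minutes of stress through heat shock elements in their promoters. The unfolded protein response does the same for chaperones of the endoplasmic reticulum through a separate element. Heat, hypoxia and enzymatic digestion of tissue can all induce the HSF1 targets.

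The libraries held between 11883496 and 16191990 reads assigned to genes. Sox9 itself was at 6211, 6043 and 6293 normalized reads in Control, in the order of the replicate numbers as throughout, and at 3363, 3165 and 3340 in Sox9cKO, a mean of 53.2% of Control (log2 fold change -0.91, SE 0.095, limma adjusted p 0.00501). The labelled cell type was checked with 10 biliary markers, of which all had reads in each library. Their sums were 150729, 109137 and 135690 normalized reads in Control and 133680, 100172 and 107222 in Sox9cKO, lower in each pair, and 7 of the 10 were on the lower side. The sums and these 7 include Sox9 itself, the floxed gene, whose fall the design set. Krt7, a keratin of bile ducts, rose and Sox9 fell with an adjusted p under 0.05, and with a block for the replicate number Spp1 was among those that fell too. Markers of other cells were present as well. The 10 hepatocyte markers summed to between 18921 and 30016 in Control and between 23313 and 37558 in Sox9cKO. Fgb and Serpina1a among them rose with an adjusted p under 0.05, while 4 of the 10 were on the lower side. The 10 endothelial markers ranged from 2328 to 52924 in Control and from 8797 to 55482 in Sox9cKO. All 10 were on the higher side, with a median log2 fold change of 1.04. Their median SD within groups was 1.92 on the log2 scale, and none had an adjusted p under 0.05 with or without the block. The 8 mesenchymal markers ranged from 540 to 1178 in Control and from 717 to 2626 in Sox9cKO, and the 7 leukocyte and Kupffer cell markers in the table from 1058 to 1136 and from 1512 to 1831. The last sum followed Csf1r, which rose (log2 fold change 0.92, limma adjusted p 0.0142), while the other 5 leukocyte markers tested had values below 0, Ptprc at -1.95 among them, and none of these 5 passed without the block. No marker in the table was at 0 in any library. In bulk samples, fewer cells of a type and less RNA per cell cannot be told apart.

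The promoters of the chaperones are shown first, because the families fall into groups under different control. RefSeq promoter windows on GRCm38.p6 were found by symbol for 69 of the 93 genes, and the 250 bases before the start were searched. Those with no entry included Bag4, Cct4, Dnaja1-ps, Dnajb6-ps, Dnajc11, Dnajc12, Dnajc18, Dnajc19-ps, Dnajc2, Dnajc22, Dnajc30, Dnajc5, Hsf1, Hsf4, Hsp90aa1, Hsp90ab1, Hspa13, Hspa8, Hspa9, Hspa9-ps1, Hspb2, Hspd1-ps3 and Hspe1-ps5. The heat shock element was searched as a pair of its units, GAANNTTC or TTCNNGAA, each of which reads the same on both strands. It was present in 12.8% of the 32851 windows of all genes and in 18 of the 89 chaperone windows (20.2%). These belonged to 16 genes: Cct2, Cct5, Dnaja1, Dnaja4, Dnajb4, Dnajb6, Dnajc10, Dnajc27, Hsf5, Hspa1a, Hspa1b, Hspb1, Hspb6, Hspd1, Hspe1 and Hsph1. A run of 3 units, GAANNTTCNNGAA or its reverse complement TTCNNGAANNTTC, contains the pair. It was in 0.466% of all windows and in those of Dnajb6, Hspd1 and Hspe1. A match describes the letters only and is not a measured binding site.

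The windows below carry the heat shock element pair, with the matching units in capitals and each sequence written 5′ to 3′ on the strand of its gene. The first shows the longest run of units, in the region between Hspe1 and its neighbour Hspd1 (chr1:55087898-55088147, plus strand). The next pair belong to the inducible HSP70 genes Hspa1a (chr17:34972157-34972406, minus strand) and Hspa1b (chr17:34959239-34959488, minus strand), whose windows had 247 of 250 bases in common. The others belong to Hspb1 (chr5:135887669-135887918, plus strand) and to Dnajb4 (chr3:152193846-152194095, minus strand) and Dnajc10 (chr2:80315216-80315465, plus strand). The log2 fold changes of Dnajb4 and Dnajc10 had opposite signs, and neither had a limma adjusted p under 0.05 without a block for the replicate number.
Hspe1: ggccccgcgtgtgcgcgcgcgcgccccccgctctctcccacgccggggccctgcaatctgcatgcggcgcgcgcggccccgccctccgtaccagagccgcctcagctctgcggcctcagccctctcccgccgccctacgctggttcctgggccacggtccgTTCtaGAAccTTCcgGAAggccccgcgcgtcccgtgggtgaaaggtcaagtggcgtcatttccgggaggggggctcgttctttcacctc
Hspa1a: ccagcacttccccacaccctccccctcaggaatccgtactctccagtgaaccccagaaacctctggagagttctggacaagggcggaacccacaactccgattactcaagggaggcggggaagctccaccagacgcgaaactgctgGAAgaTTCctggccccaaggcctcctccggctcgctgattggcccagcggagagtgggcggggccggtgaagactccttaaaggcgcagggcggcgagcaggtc
Hspa1b: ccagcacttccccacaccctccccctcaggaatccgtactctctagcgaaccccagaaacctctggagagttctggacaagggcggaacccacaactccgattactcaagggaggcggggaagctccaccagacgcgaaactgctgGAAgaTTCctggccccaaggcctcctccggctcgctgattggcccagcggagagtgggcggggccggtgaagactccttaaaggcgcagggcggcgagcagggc
Hspb1: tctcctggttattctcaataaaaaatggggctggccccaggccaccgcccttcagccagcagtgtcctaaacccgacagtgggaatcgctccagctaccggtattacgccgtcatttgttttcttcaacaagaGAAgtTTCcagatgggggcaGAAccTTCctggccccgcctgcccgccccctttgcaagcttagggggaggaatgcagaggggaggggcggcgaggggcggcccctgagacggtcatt
Dnajb4: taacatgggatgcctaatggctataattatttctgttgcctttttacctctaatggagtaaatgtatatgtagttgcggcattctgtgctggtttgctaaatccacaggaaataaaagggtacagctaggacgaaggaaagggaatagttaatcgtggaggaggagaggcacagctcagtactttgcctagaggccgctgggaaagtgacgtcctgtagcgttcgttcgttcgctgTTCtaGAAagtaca
Dnajc10: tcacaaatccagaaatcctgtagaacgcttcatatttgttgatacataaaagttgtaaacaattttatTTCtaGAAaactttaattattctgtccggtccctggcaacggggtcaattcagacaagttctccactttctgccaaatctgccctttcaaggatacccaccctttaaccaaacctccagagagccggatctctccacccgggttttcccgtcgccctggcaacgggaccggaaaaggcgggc

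The endoplasmic reticulum stress response element was searched as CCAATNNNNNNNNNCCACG and its reverse complement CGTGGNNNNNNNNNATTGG. It was found in 37 of the 32851 windows (0.113%), and 3 of these belonged to chaperones of the reticulum, namely Hspa5, Hsp90b1 and Dnajc3. The windows of Hspa5 (chr2:34771840-34772089, plus strand) and Hsp90b1 (chr10:86705445-86705694, minus strand) are printed with the element in capitals; Hsp90b1 has it on both strands.
Hspa5: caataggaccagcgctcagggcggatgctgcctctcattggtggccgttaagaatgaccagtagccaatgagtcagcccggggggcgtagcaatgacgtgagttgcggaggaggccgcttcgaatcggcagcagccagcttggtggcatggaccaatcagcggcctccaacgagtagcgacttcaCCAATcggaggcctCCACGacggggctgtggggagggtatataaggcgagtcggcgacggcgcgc
Hsp90b1: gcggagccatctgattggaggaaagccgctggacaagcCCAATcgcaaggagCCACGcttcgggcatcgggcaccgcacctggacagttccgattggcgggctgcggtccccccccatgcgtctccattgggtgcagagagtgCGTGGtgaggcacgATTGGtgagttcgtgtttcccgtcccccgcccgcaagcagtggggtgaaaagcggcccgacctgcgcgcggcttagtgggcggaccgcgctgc

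**Figure D1:**
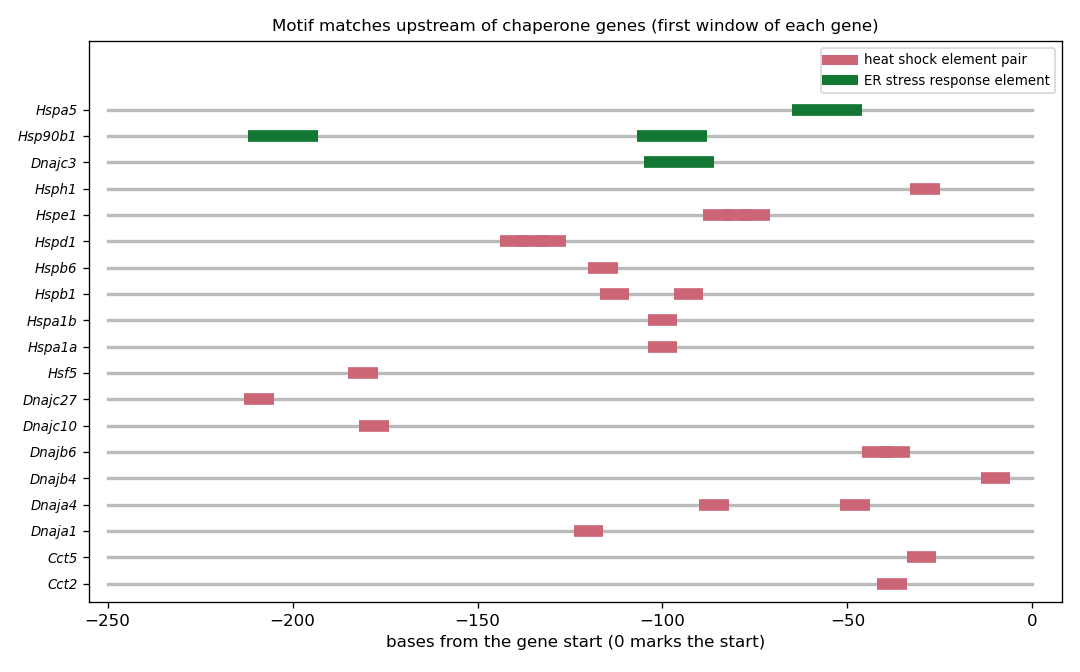
Positions of motif matches in the 250 bases before the start of 19 chaperone genes, with the distance from the start on the x axis and a gene per line. Red bars mark heat shock element pairs, and green bars mark the endoplasmic reticulum stress response element, which is present in Hspa5, Hsp90b1 and Dnajc3.

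No chaperone gene passed the threshold between the genotypes, an adjusted p under 0.05 over all 17153 genes tested with limma. The smallest adjusted p among the 84 was 0.0817, that of Dnajc10. The same threshold was passed by 2.97% of all genes tested. edgeR's quasi-likelihood test on the recovered reads called 0 of the 84 as well, against 2.86% of all genes, and DESeq2 called 4 (Dnajb4, Dnajc10, Hspa2 and Hspa4l), against 7.24%. An unadjusted limma p under 0.05 was found for 12 chaperone genes, 6 higher and 6 lower in Sox9cKO, which is 14.3% of those tested against 17.8% of all genes. The groups did not overlap for 21 of the 84 (25.0%), 14 higher and 7 lower, against 24.2% of all genes (13.4% higher and 10.8% lower). The median log2 fold change was -0.0019, with 42 genes on each side of 0, beside a median of 0.036 over all genes tested.

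The differences were small for most members. The log2 fold change was under 0.5 in size for 73 of the 84 and over 1 for 5, namely Hspb1, Hspa2, Hspa1l, Dnajc28 and Hsf5. For 26 genes the 95% interval of the log2 fold change lay between -0.5 and 0.5, and for 63 it lay between -1 and 1. For the remaining 21 a change of 1 on the log2 scale was thus not outside the interval.

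Deviations from the group means correlated across genes between libraries that share a number, at 0.207, 0.472 and 0.542 for replicates 1, 2 and 3. A block for the number was therefore also fitted, and its result is called the blocked adjusted p. With the replicate block, 5 chaperone genes had an adjusted p under 0.05: Hspa2, Dnajb4, Dnajb9 and Dnajc1 were lower in Sox9cKO, and Dnajc10 was higher. This is 5.95% of those tested, against 8.05% of all genes in the same fit (5.06% higher and 2.99% lower). edgeR with the replicate block called 4, the same without Dnajc10, against 6.76%. The count thus differed between the fits, from 0 to 5, and Dnajb4, Dnajc10 and Hspa2 were called both by limma with the block and by DESeq2 without it. In each of these fits the share of chaperone genes called was below that of all genes.

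**Figure D2:**
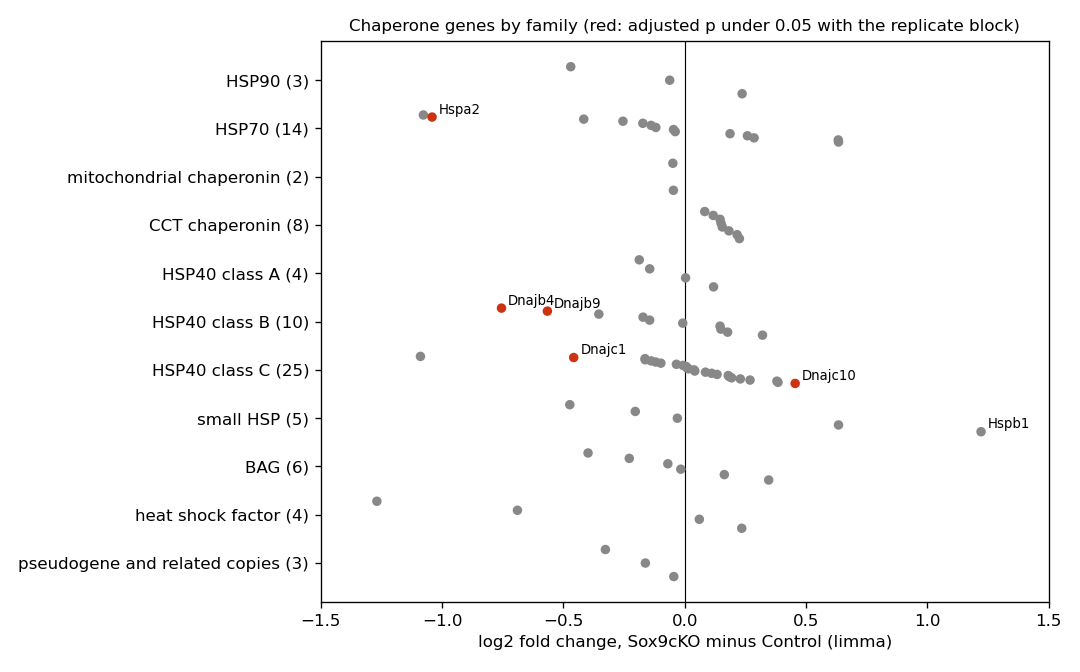
Log2 fold change (Sox9cKO minus Control, x axis) of the 84 tested chaperone genes, a point per gene, by family on the y axis with the number tested in brackets. Red points have an adjusted p under 0.05 with the replicate block, and the points of the CCT chaperonin all lie between 0.082 and 0.23.

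Hspb1 encodes a small heat shock protein that binds actin and holds unfolded proteins. Hspb1 (ENSMUSG00000004951) had 400, 106 and 200 normalized reads in Control and 629, 512 and 337 in Sox9cKO. Each Sox9cKO sample was above the Control sample of the same number, by 0.65, 2.26 and 0.75 on the log2 scale, but the groups overlapped, since Control replicate 1 lay above Sox9cKO replicate 3. The means were 235 ± 150 and 493 ± 147 (SD, n = 3), and the log2 fold change was 1.22, the highest of the chaperone genes tested, with a 95% interval from 0.12 to 2.32. It did not pass the threshold (limma adjusted p 0.234, blocked adjusted p 0.063). Without Control replicate 2, which had the fewest reads of the gene, the log2 fold change was 0.75 and the limma adjusted p 0.374.

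The other small heat shock proteins did not move as a group. Hspb8, the partner of BAG3 in selective autophagy, had 161, 213 and 249 normalized reads in Control and 231, 420 and 331 in Sox9cKO. It too was higher in each pair, yet its groups overlapped and the test was not passed (log2 fold change 0.63, limma adjusted p 0.267, blocked adjusted p 0.0614). Hspb6, a small HSP of muscle, had 40.3, 47.3 and 40.3 against 31.8, 43.5 and 52.1, with the Sox9cKO values on both sides of Control. Hspb11, also known as an intraflagellar transport protein, had a log2 fold change of -0.20 and Hspb2 one of -0.47, each with an interval that included 0. Hspb7 was too low to test, with between 0 and 13.9 normalized reads.

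Among the HSP70 genes the member that stood apart was Hspa2, best known from its role in male meiosis and also made at low level in other tissues. Hspa2 (ENSMUSG00000059970) had 1302, 727 and 1229 normalized reads in Control and 638, 447 and 466 in Sox9cKO. All Sox9cKO samples were below all Control samples, and the mean went from 1086 ± 313 to 517 ± 105 (SD, n = 3). The log2 fold change was -1.04 (SE 0.25) with a limma adjusted p of 0.086 and a blocked adjusted p of 0.011. Without Control replicate 2, the lowest of its group, the log2 fold change was -1.31 and the limma adjusted p 0.0232, a threshold that 2.29% of all genes passed in that fit.

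The HSP110 nucleotide exchange factors Hspa4 and Hspa4l pointed upward. Hspa4l had 774, 520 and 630 normalized reads in Control and 875, 997 and 1086 in Sox9cKO, with no overlap (log2 fold change 0.63, limma adjusted p 0.116, blocked adjusted p 0.0647). Hspa4 had 3189, 3241 and 3504 against 3955, 4072 and 4074 (0.29, adjusted p 0.189, blocked adjusted p 0.11), a narrow spread in both groups. Their inducible relative Hsph1 is described with the heat shock genes. Hspa9, the mitochondrial HSP70 that pulls proteins through the inner membrane, had overlapping values between 3777 and 5056 and a log2 fold change of 0.19. Hspa14, a ribosome-bound member, had 186, 177 and 189 against 216, 218 and 226, a log2 fold change of 0.26 that did not pass the test (limma adjusted p 0.38).

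The low HSP70 members varied more. Hspa1l, a neighbour of Hspa1a, had between 10.4 and 23.5 normalized reads in Control and between 6.96 and 7.92 in Sox9cKO (log2 fold change -1.08, limma adjusted p 0.234). Hspa12b, which is known from endothelial cells, had 59.7, 110 and 33.4 in Control and 54.7, 69.9 and 23.8 in Sox9cKO. Its relative Hspa12a had 92.5, 258 and 50.7 against 190, 198 and 122. In each group both genes were highest in replicate 2 and lowest in replicate 3, and so were the summed endothelial markers, at 16373, 52924 and 2328 in Control and 40242, 55482 and 8797 in Sox9cKO. The part of endothelial RNA in these values was not tested.

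DnaJ proteins share the J domain that stimulates HSP70, and 39 of them were tested in 3 classes. Class B and C held the other genes that passed with the block. Dnajb4 (ENSMUSG00000028035) is a cytosolic co-chaperone with a heat shock element pair just before the start in 1 of its 2 promoter windows. It had 3144, 1604 and 2213 normalized reads in Control and 1406, 1139 and 1448 in Sox9cKO. The groups did not overlap (log2 fold change -0.76, SE 0.24, limma adjusted p 0.164, blocked adjusted p 0.0289).

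Dnajb9 and Dnajc1 are DnaJ proteins of the endoplasmic reticulum. Dnajb9 (ENSMUSG00000014905), a repressor of the stress sensor IRE1 and a target of the unfolded protein response, had 1412, 1008 and 1490 in Control and 916, 786 and 906 in Sox9cKO (log2 fold change -0.57, SE 0.17). Its limma adjusted p was 0.147 and its blocked adjusted p 0.0324. Dnajc1 (ENSMUSG00000026740) had 2736, 2090 and 2636 against 1859, 1591 and 1966 (log2 fold change -0.46, SE 0.15, limma adjusted p 0.164, blocked adjusted p 0.0363). Every Sox9cKO value of these genes was below every Control value.

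Dnajc10, also called ERdj5, is a reductase of the reticulum that cuts disulfide bonds of misfolded proteins before their degradation. Dnajc10 (ENSMUSG00000027006) had 1084, 983 and 1018 normalized reads in Control and 1504, 1326 and 1402 in Sox9cKO. The spread within each group was small, with means of 1028 ± 51.0 and 1411 ± 89.5 (SD, n = 3), and the differences within the 3 pairs were 0.47, 0.43 and 0.46 on the log2 scale. Its log2 fold change was 0.45 (SE 0.11, limma adjusted p 0.0817, blocked adjusted p 0.0376).

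**Figure D3:**
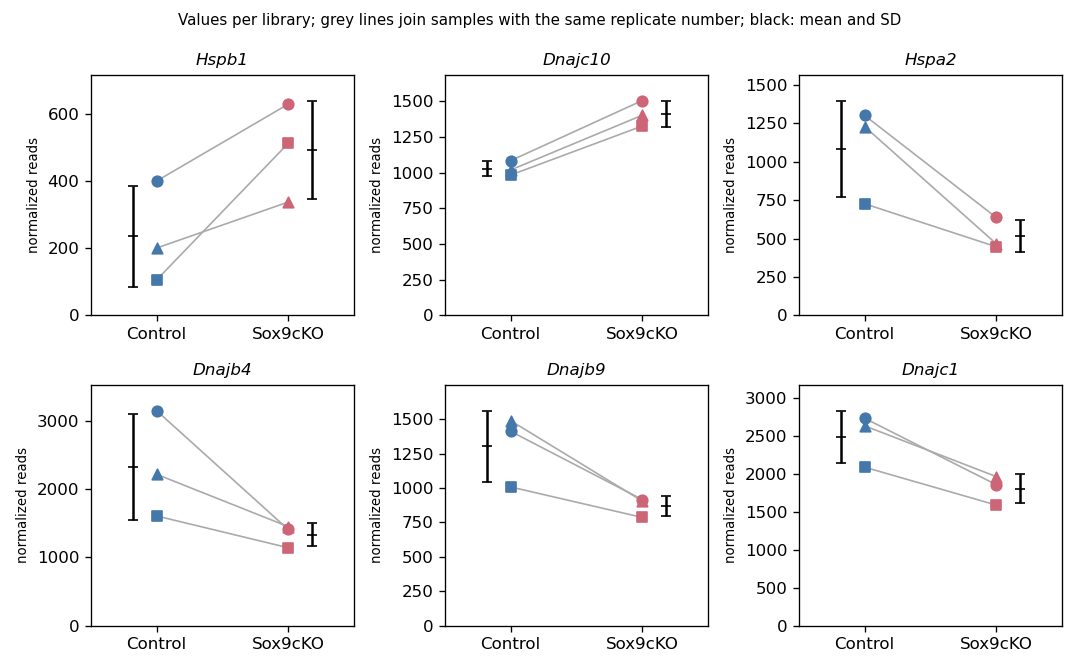
Normalized reads (y axis, from 0) of Hspb1 and of the 5 genes that passed the threshold with the replicate block, in 3 Control and 3 Sox9cKO samples. Symbols stand for replicate numbers, grey lines join samples of the same number and black bars give the mean and SD; the groups overlap for Hspb1 alone.

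Other DnaJ genes whose groups did not overlap had smaller changes or few reads. Dnajc28, a little-studied member, had 41.2, 38.1 and 41.5 normalized reads in Control and 17.9, 16.1 and 21.5 in Sox9cKO (log2 fold change -1.09, limma adjusted p 0.0854, blocked adjusted p 0.063). On the higher side, Dnajb11, Dnajb12, Dnajc14, Dnajc16, Dnajc17 and Dnaja2 had log2 fold changes of 0.32, 0.15, 0.23, 0.27, 0.38 and 0.12, and none passed with or without the block. Dnajc13, an endosomal protein, and Dnajc5, the cysteine string protein of secretory vesicles, were near 0 at 0.041 and 0.039, with SEs of 0.13 for both. The 25 class C genes tested had a median log2 fold change of 0.039, the 10 of class B -0.077 and the 4 of class A -0.071.

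The chaperones of the reticulum did not move together. Hspa5, Hsp90b1 and Dnajc3 had the stress response element in their windows, while Dnajb9 and Dnajb11 had no match to it. Hspa5, which encodes BiP, the main HSP70 of the reticulum, had 12197, 10418 and 12321 normalized reads in Control and 12727, 10100 and 9128 in Sox9cKO (log2 fold change -0.14, 95% interval -0.50 to 0.22). Hsp90b1, the HSP90 of the reticulum known as GRP94, had 6835, 6091 and 6587 against 9208, 7222 and 6742, higher in each pair but with overlap (0.24, limma adjusted p 0.447, and 0.10 without Sox9cKO replicate 1). Dnajc3, the inhibitor of the kinase PERK, had 1551, 1544 and 1411 against 1558, 1552 and 1422, close to equal in each pair (log2 fold change 0.0081, 95% interval -0.24 to 0.26). Dnajb11, a co-chaperone of BiP, had 515, 472 and 452 against 716, 567 and 528 (0.32, limma adjusted p 0.331, blocked adjusted p 0.142, and 0.19 without Sox9cKO replicate 1). Of the 5 reticulum members Hspa5, Hsp90b1, Dnajb9, Dnajb11 and Dnajc3, 3 were thus on the higher side and 2 on the lower, and Dnajb9 passed with the block.

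Several inducible genes varied between libraries of a group far more than between the genotypes. Hspa1b (ENSMUSG00000090877), the main inducible HSP70 gene, had 9472, 1989 and 2811 normalized reads in Control and 4467, 3122 and 2651 in Sox9cKO. Control replicate 1 was 4.76 times Control replicate 2, and Sox9cKO lay within the Control range. Hspa1a (ENSMUSG00000091971) had 6584, 1511 and 1944 against 3276, 2468 and 1867. These neighbouring genes are nearly identical in sequence, so the division of reads between them is uncertain.

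Hsph1 and Dnajb1, partners of inducible HSP70, had the same order of libraries within each group as Hspa1b and Hspa1a. Hsph1, the HSP110 exchange factor, had 7000, 1816 and 2408 normalized reads in Control and 3398, 3049 and 2724 in Sox9cKO. Dnajb1, the inducible DnaJ protein, had 2838, 1006 and 1379 against 1616, 1102 and 1058. In each gene Control replicate 1 stood well above the other 5 libraries. Hspe1, the lid of the mitochondrial chaperonin, had 514, 206 and 212 against 321, 267 and 237, and its partner Hspd1 1754, 1068 and 1236 against 1347, 1236 and 1262.

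All 10 inducible genes listed (Hspa1a, Hspa1b, Hspa8, Hsph1, Dnaja1, Dnajb1, Hsp90aa1, Hspd1, Hspe1 and Bag3) were highest in replicate 1 of both groups. That held for 37 of the 84 chaperone genes (44.0%) and for 17.2% of all genes tested. Among the chaperone genes with a promoter window, it held for 10 of 16 with a heat shock element pair and for 19 of 48 without. Together the 10 genes took 0.530%, 0.237% and 0.291% of the reads in Control and 0.300%, 0.254% and 0.215% in Sox9cKO.

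Immediate early and dissociation genes, which respond to tissue digestion, were also highest in replicate 1 of each group when their 12 genes were summed. The sums were 195140, 140097 and 175902 normalized reads in Control and 118848, 112266 and 100053 in Sox9cKO, without overlap between the groups. Gene by gene, 2 of the 12 were highest in replicate 1 of both groups, against 17.2% of all genes tested. Atf3, which fell (limma adjusted p 0.0263), and Dusp1, which rose (limma adjusted p 0.0151), passed the threshold, 2 of 12 against 2.97% of all genes. With the block 6 of the 12 passed, against 8.05% of all genes, since Fosb, Zfp36, Egr1 and Btg2 were then lower as well. An unadjusted limma p under 0.05 was found for 9 of the 12, against 17.8% of all genes, and 10 of the 12 were on the lower side under each scaling. The part of tissue dissociation in the chaperone values was not tested.

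None of the inducible genes passed the threshold with or without the block. The log2 fold changes of all 10 were below 0, between -0.47 and -0.039, and stayed so with TMM factors and quantile normalization, but Control replicate 1 decided the direction of most. Without it the log2 fold change was 0.53 for Hspa1a, 0.49 for Hspa1b, 0.54 for Hsph1, 0.38 for Hspe1, 0.16 for Hspd1, 0.096 for Dnaja1 and 0.068 for Dnajb1. It stayed below 0 for Hsp90aa1 (-0.21), Hspa8 (-0.029) and Bag3 (-0.082). Without Sox9cKO replicate 3, 3 of the 10 were above 0. With all samples, the 95% intervals were wide, from -1.44 to 1.10 for Hspa1b and from -1.11 to 1.03 for Hsph1.

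**Figure D4:**
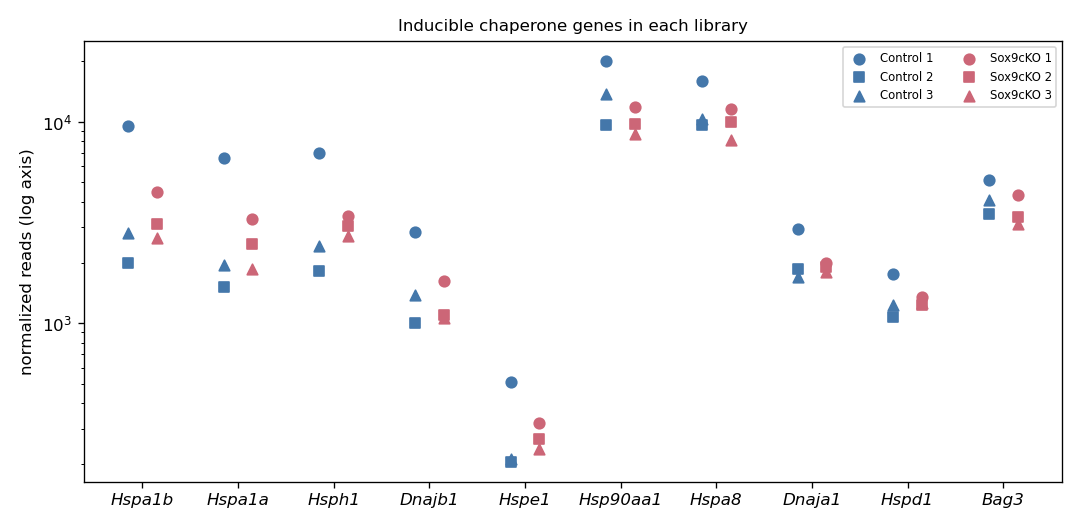
Normalized reads (log axis) of 10 inducible chaperone genes in the 6 libraries, blue for Control and red for Sox9cKO, with a symbol for each replicate number. Control replicate 1 (blue circles) is the highest library for each gene, at 9472 for Hspa1b against 1989 in Control replicate 2.

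HSP90 is among the most abundant cytosolic proteins, and its cytosolic forms led the chaperones here per kilobase of annotated exon. That length is the union of the exons of all transcripts of a gene, so the order may differ with the length of a single transcript. Hsp90ab1, the constitutive form, had 7673 normalized reads per kilobase of exon as a mean of the 6 libraries, followed by the inducible form Hsp90aa1 (3119), Hspa5 (2636), the constitutive HSP70 gene Hspa8 (2539), Hsp90b1 (1764), Bag3 (1528) and Hspa1b (1458). In normalized reads, Hsp90aa1 had 19967, 9683 and 13709 in Control and 11773, 9795 and 8649 in Sox9cKO (log2 fold change -0.47, limma adjusted p 0.41, blocked adjusted p 0.131). Hsp90ab1 had 29840, 18865 and 21896 against 27485, 22339 and 17638 (-0.062, 95% interval -0.59 to 0.46), so the groups covered nearly the same range. Hspa8 had 15953, 9599 and 10345 against 11589, 9936 and 8098, again with overlap.

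The CCT chaperonin is a ring of 8 different subunits that folds newly made actin and tubulin. The genes of all 8 (Tcp1, Cct2, Cct3, Cct4, Cct5, Cct6a, Cct7 and Cct8) were on the higher side in Sox9cKO. So were 9293 of the 17153 genes tested. The log2 fold changes of the 8 lay between 0.082 and 0.23, with a median of 0.15 beside 0.036 over all genes. With quantile normalization 7 of the 8 were on the higher side. The median was 0.055 without Sox9cKO replicate 1. None passed the threshold, with limma adjusted p-values from 0.315 to 0.766 and blocked values from 0.208 to 0.681. Cct3 had 1194, 1133 and 1158 normalized reads in Control and 1406, 1395 and 1277 in Sox9cKO. Cct4 had 1151, 1072 and 1148 against 1325, 1276 and 1223, and Cct6a 1310, 1163 and 1349 against 1563, 1507 and 1368. These 3 of the 8 genes had no overlap between the groups, where 13.4% of all genes tested had none and were higher. Tcp1, at 2174, 1943 and 2124 against 2658, 2211 and 2065, did overlap, as did the remaining 4. The subunit genes were the steadiest of the chaperone families, with a median SD within groups of 0.12 on the log2 scale against 0.48 for the inducible genes and 0.29 over all genes tested. Cct6b, the testis form of the zeta subunit, had between 2.84 and 13.9 normalized reads and was not tested.

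**Figure D5:**
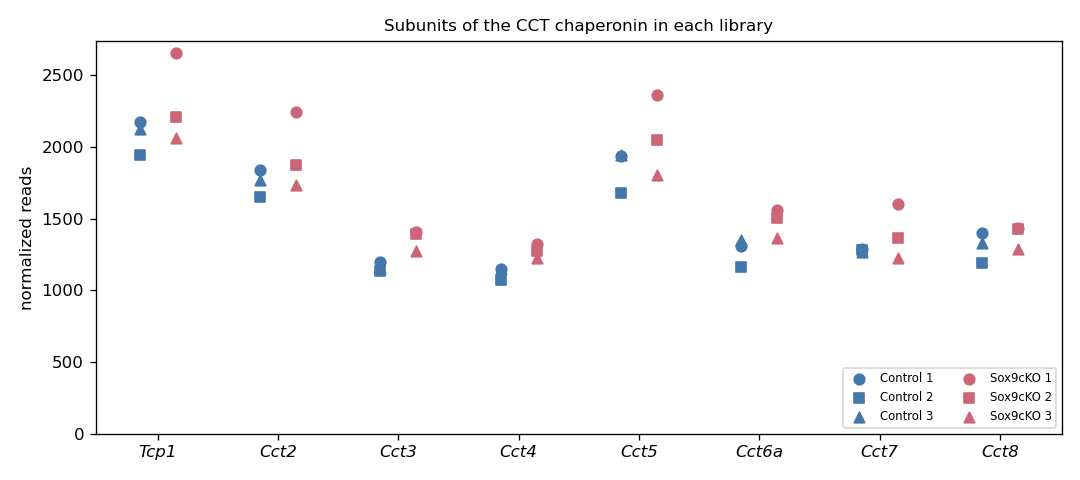
Normalized reads (y axis, from 0) of the 8 CCT subunit genes in the 6 libraries, blue for Control and red for Sox9cKO, with a symbol for each replicate number. The Sox9cKO values lie above all Control values for Cct3, Cct4 and Cct6a and overlap with them for the other 5 genes.

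The BAG proteins release clients from HSP70 and link it to degradation. Bag3, the stress-induced member that directs clients to autophagy, had 5115, 3476 and 4090 normalized reads in Control and 4352, 3353 and 3097 in Sox9cKO. It was lower in each pair, with log2 differences of -0.23, -0.052 and -0.40, and did not pass the test (limma adjusted p 0.59, blocked adjusted p 0.229). Bag1, an exchange factor that links HSP70 to the proteasome, had 1462, 1088 and 1174 against 2349, 1225 and 1332, with Sox9cKO replicate 1 well above the rest (log2 fold change 0.35, adjusted p 0.547). Bag2, an inhibitor of the ubiquitin ligase CHIP, had 330, 200 and 323 against 227, 202 and 203 (-0.40, adjusted p 0.402, and -0.63 without Control replicate 2). Bag4, Bag5 and Bag6 had log2 fold changes of -0.070, -0.016 and 0.16.

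The heat shock factors showed no difference past the threshold. Hsf1, the master regulator, which is controlled mostly as a protein, had 741, 700 and 1024 normalized reads in Control and 720, 924 and 903 in Sox9cKO (log2 fold change 0.060, 95% interval -0.37 to 0.49). Hsf2 had 383, 342 and 316 against 331, 426 and 479 (0.23, adjusted p 0.545). Hsf4, the factor of the lens, and Hsf5, a factor of the testis, were low, with means over the 6 libraries of 19.5 and 13.8 normalized reads and log2 fold changes of -0.69 and -1.27 that did not pass (adjusted p 0.384 and 0.373). Without Sox9cKO replicate 1, which had 1.99 normalized reads of it, Hsf5 was at -0.57.

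The table also held 7 pseudogene or related copies of chaperone genes, whose reads may come from their parent genes. Of the 3 tested, Hspd1-ps3 had 168, 111 and 97.9 normalized reads in Control and 147, 112 and 101 in Sox9cKO, highest in replicate 1 of both groups as Hspd1 was. Dnajb6-ps had a log2 fold change of -0.33 and did not pass the test. The 9 genes below the filter were Cct6b, Dnajb3, Dnajb7, Dnajc6, Hspb7, Dnaja1-ps, Dnajc19-ps, Hspa9-ps1 and Hspe1-ps5, none of them above 13.9 normalized reads in any library.

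A separate list of 72 genes covered protein folding outside these families, and 71 of them were tested. Only Fkbp5 passed the threshold, 1 of 71 against 2.97% of all genes. Fkbp5 (ENSMUSG00000024222), a co-chaperone that lowers the affinity of HSP90-bound steroid receptors, had 352, 384 and 272 normalized reads in Control and 819, 643 and 777 in Sox9cKO. It rose with a log2 fold change of 1.16 (SE 0.17, limma adjusted p 0.0176, blocked adjusted p 0.0106), though the call was lost when Control replicate 1 (adjusted p 0.0757), Control replicate 3 (0.0524), Sox9cKO replicate 1 (0.0593) or Sox9cKO replicate 3 (0.0658) was left out. The other 20 HSP90 and HSP70 co-chaperones, among them Stip1 (0.25) and Ahsa1 (-0.031), did not pass.

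Folding genes of the endoplasmic reticulum were mostly on the higher side, 19 of the 24 tested, with a median log2 fold change of 0.21 beside 0.036 over all genes, and 15 of the 24 with quantile normalization (median 0.088). In limma 0 of them passed the threshold. An unadjusted limma p under 0.05 was found for 4 of the 24, against 17.8% of all genes, and 1 of the 24 passed with the block, against 8.05%. Sel1l, the scaffold of the HRD1 degradation complex, had 1455, 1450 and 1355 normalized reads in Control and 1887, 1899 and 2016 in Sox9cKO (0.45, adjusted p 0.0687, blocked adjusted p 0.0441). The disulfide isomerase genes Pdia6 (0.46, adjusted p 0.113) and Pdia3 (0.31, adjusted p 0.233) and the HSP110 of the reticulum Hyou1 (0.43, adjusted p 0.239) had no overlap between the groups either. The groups did not overlap for 7 of the 24, all of them higher, against 24.2% of all genes (13.4% higher and 10.8% lower). Xbp1, the transcription factor that IRE1 splices, had a value of 0.43 with an adjusted p of 0.333. Prefoldin and chaperonin helpers (11 tested, median -0.099), mitochondrial folding genes (9 tested, median -0.0081) and other stress-induced genes (6 tested, median -0.19) had no member past the threshold with or without the block.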

How the data were processed

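RNA of biliary epithelial cells was sequenced from 3 Control and 3 Sox9cKO samples after ribosomal depletion, with a stranded total RNA kit and molecular identifiers, per the labels' protocols. The authors deposited a signal per gene, namely gene counts divided by 1 size factor per sample, as the deposited values show. Division by the lowest value above 0 in a column gave whole reads for 100% of values (tolerance 0.001 reads). GRCm39 and DESeq2 1.36.0 are named in the submitters' processing notes. Aligner, counter and the use made of strand and identifiers are not given in the sources used here.

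Values were tested as log2(value + 1) with limma 3.58.1 in R 4.3.3 (intensity trend, two-sided, Benjamini-Hochberg adjustment over genes with a mean of at least 10, threshold 0.05). The pseudocount of 1 understates changes of low genes. Same-numbered samples, numbered in the titles, had deviations from the group means that correlated at 0.207, 0.472 and 0.542 across genes, so fits with a block for the number are given where they changed a call. Alternatives were other pseudocounts, filters and scalings, edgeR 4.0.16 and DESeq2 1.42.0 on the reads, and leaving out samples. Scripts were tested on simulated data. Exon lengths, each the union of all annotated exons of a gene, came from GENCODE M21.

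Genes named were Sox9, Hspb1, those past the threshold with or without the block, the lowest p and most reads of each family, the listed inducible and reticulum genes, and called genes of the other folding list. Further genes were named after their values were seen. Members and lists were chosen with earlier results of these data known. The values of 1 member and 1 marker are not reported here.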

Additional observations from a re-analysis of the deposited data

How the results depend on the processing

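The count of chaperone genes past the threshold was 0 with either other pseudocount (0.1 or 5), with all genes kept, with a filter at a mean of 50, with TMM factors, with quantile normalization and with edgeR. It was 5 with the replicate block, 4 with edgeR and the replicate block and 4 with DESeq2, and between 0 and 1 when 1 sample, or the same-numbered sample of both groups, was left out; the latter fits were chosen after seeing the data. The count of other folding genes was 1, against 2 with the replicate block, 3 with DESeq2 and between 0 and 1 when samples were left out, where fewer samples were tested. The median log2 fold change of the chaperone genes was -0.0687 with quantile normalization, which placed that of all genes at -0.031, and ranged from -0.0278 to 0.0910 when samples were left out. Sox9 kept its direction in each fit, from -0.93 to -0.88 with samples left out. Its call was lost without replicate 1 (-0.92), 2 (-0.90) or 3 (-0.91) of both groups, where the limma adjusted p was 0.0962, 0.0522 and 0.0972. Hspb1 stayed above 0 and passed in none, from 0.70 to 1.70 with samples left out.

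Of the 30 named genes, 12 changed sign in at least 1 fit, and none of these 12 passed the threshold in any of the 19 alternatives. Dnajc5 had a log2 fold change of -0.0055 with TMM factors, -0.049 with quantile normalization, -0.0079 with edgeR and -0.0060 with edgeR and the replicate block. Dnajc3 had -0.036, -0.092, -0.037 and -0.037 in the same fits, and Hsf1 -0.048 with quantile normalization. With samples left out, the ranges were -0.30 to 0.096 for Dnaja1, -0.032 to 0.12 for Dnajc5, -0.27 to 0.0083 for Hspa5, -0.22 to 0.12 for Hsp90ab1, -0.11 to 0.23 for Hsf1, -0.20 to 0.16 for Hspd1, -0.53 to 0.53 for Hspa1a, -0.63 to 0.49 for Hspa1b, -0.43 to 0.54 for Hsph1, -0.68 to 0.068 for Dnajb1, -0.27 to 0.38 for Hspe1 and -0.036 to 0.051 for Dnajc3. Without replicate 1 of both groups, the values were 0.059 for Dnaja1, 0.32 for Hspa1a, 0.28 for Hspa1b, 0.46 for Hsph1 and 0.26 for Hspe1. Hsp90ab1 had 0.063 without replicate 3 of both groups, and Hsf1 -0.045 without Control replicate 2. Apart from the fits with fewer samples, the cause was not tested. Beyond the 5 chaperone genes, Sel1l and the marker genes given with a block (Spp1, Fosb, Zfp36, Egr1 and Btg2), the block changed no call of a named gene. Depth limits the low members, such as Hspa1l, Hsf4 and Hsf5, more than the abundant ones.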
